A study of Homo sapiens with 8 samples.

Results

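Expressed ribosomal protein pseudogenes are copies of ribosomal protein genes that the annotation classes as pseudogenes but to which RNA reads were assigned. They were chosen by symbol and by measured level, as rows whose symbol is a ribosomal protein symbol followed by P and digits, with a mean of at least 1 FPKM over all 8 libraries. FPKM divides a row's reads by the gene's length and by the reads of the whole library. The pattern matched 607 of 48162 rows, 260 of these were at 0 in every library, and 26 met the level. The mean FPKM that chose them is therefore given as a description. Just inside the level lay RPL13AP20 at 1.03 FPKM, RPL15P3 at 1.09 FPKM and RPL9P7 at 1.12 FPKM. Just outside lay RPL6P27 and RPS19P3, both at 0.983 FPKM, and RPS26P49 at 0.751 FPKM.

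Total RNA was sequenced from KYSE70 and KYSE450, established human lines of esophageal squamous cell carcinoma, at passages 5 to 10. Each line gave 4 libraries: NMR overexpression by transfection of a plasmid vector, its control, NMR knockdown by lentivirus packaged in HEK 293T cells, and its control. NMR is a long noncoding RNA; no row carries that name, and its own level is not analysed here. Every group thus has 1 library per line, and a comparison of the lines sets 4 KYSE70 libraries against 4 KYSE450 libraries that differ in treatment. Nothing in the labels says that libraries of a line came from separate cultures, so p-values measure the spread between these libraries. Library totals ran from 26448153 to 38003344 reads, so that a single read on a row of 1 kb adds 0.0263 to 0.0378 FPKM. All 10 squamous epithelial markers had a mean above 1 FPKM, from 71.0 FPKM for the desmosomal cadherin DSG3 to 9388 FPKM for the basal keratin KRT5. The basal keratin KRT17 averaged 0.597 FPKM in KYSE70 against 230 FPKM in KYSE450. Of 9 markers of other cell types with a row, 2 had a mean of at least 1 FPKM, COL1A1 at 29.2 FPKM and VWF at 1.76 FPKM, while CD3E, DCN, LYZ, PTPRC and ALB were below 0.04 FPKM.

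Ribosomal proteins build the small (RPS) and large (RPL) subunits of the ribosome, and their mRNAs are among the most abundant in dividing cells. Abundant mRNAs are often copied back into the genome by the reverse transcriptase of LINE-1 elements. The resulting processed pseudogenes lack introns and usually a promoter of their own, and many lie inside introns of other genes. Young copies can be nearly identical to the parent mRNA, and a short read that fits a copy and its parent equally well cannot be placed by sequence alone.

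In GENCODE release 29 on GRCh38, 20 of the 26 loci were processed pseudogenes, 5 were transcribed processed pseudogenes and RPL32P3 was a transcribed unprocessed pseudogene. They lay on 12 chromosomes and had 19 parent genes. RPL23A had 3 of these copies (RPL23AP79, RPL23AP64 and RPL23AP7), and RPS2, RPL13, RPL9 and RPL13A had a pair each. Identity to the closest parent transcript was lowest for RPS20P33, at 78.9%, and RPL9P7, at 99.7%, was among the copies nearest to their parent. The share of a copy's 50-base windows found letter for letter in the parent's transcripts was 0% for RPL32P3, RPL39P36 and RPS20P33, against 87.8% for RPL9P7. Whether reads of the parents were counted for the copies was not tested, since the values are sums per gene and hold no read positions.

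The sequences that tell the 2 most abundant copies from their parent are few. RPS2P46 (chr17:19445970-19446852, minus strand, GRCh38) and RPS2P5 (chr12:118246084-118246962, plus strand) each had 11 substitutions against RPS2, at 98.8% identity. Positions count from 1 at the A of the parent's start codon, and a substitution gives the parent's base first. RPS2P46 carried G36A, G53A, G107A, G137A, T261A, T402C, C559T, G709A, G753A, C783T and G804A. RPS2P5 carried C32A, G36A, T261C, G355A, A378G, C486T, A579G, C783T, G804A, C822T and C860A. They shared 3 of these, and across all 17 RPS2 pseudogene rows G36A occurred in 10, C783T in 6 and G804A in 14. Coding bases 25 to 60, from GENCODE transcripts, are shown for the differences near the start codon, with bases that differ in capitals.
RPS2P46: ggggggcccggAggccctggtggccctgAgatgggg
RPS2P5: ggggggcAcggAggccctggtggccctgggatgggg
RPS2: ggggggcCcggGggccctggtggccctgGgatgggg

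The other sequences show copies at the highest and the lowest level relative to the parent, and a copy inside an intron. RPL23AP79 (chr19:58573503-58599801, plus strand) had the highest level relative to its parent and was 92.7% identical to RPL23A over its aligned bases, shown in coding bases 121 to 180.
RPL23AP79: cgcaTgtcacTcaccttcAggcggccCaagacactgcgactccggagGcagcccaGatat
RPL23A: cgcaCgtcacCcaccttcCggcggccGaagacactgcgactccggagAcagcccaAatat
RPS12P26 (chr15:90206572-90206967, plus strand) lay in an intron of SEMA4B and was 92.9% identical to RPS12, shown in coding bases 40 to 99.
RPS12P26: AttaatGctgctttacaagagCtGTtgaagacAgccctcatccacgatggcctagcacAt
RPS12: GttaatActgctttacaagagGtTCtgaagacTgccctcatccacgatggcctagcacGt
RPL13AP20 (chr12:12875499-12876107, plus strand) had the lowest level relative to its parent and was 96.7% identical to RPL13A, shown in coding bases 199 to 258.
RPL13AP20: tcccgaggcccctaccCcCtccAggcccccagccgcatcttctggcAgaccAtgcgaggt
RPL13A: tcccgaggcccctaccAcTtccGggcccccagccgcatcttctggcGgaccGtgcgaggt

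Levels fell into a few high rows and many low ones. RPS2P46 averaged 118 FPKM, RPS2P5 104 FPKM, RPL32P3 34.9 FPKM and RPL23AP79 31.3 FPKM over the 8 libraries, and the other 22 pseudogenes lay below 6 FPKM. Among these were RPL23AP64 at 5.51 FPKM, RPL13P12 at 5.06 FPKM, RPL21P28 at 4.60 FPKM, RPS3AP6 at 4.06 FPKM, RPL18AP3 at 3.84 FPKM and RPL23AP7 at 3.40 FPKM. All 26 had reads in all 8 libraries, although RPL15P3 came down to 2 reads in 1 library. Parent genes averaged 10.2 FPKM (RPL36A) to 3213 FPKM (RPS2), and 17 of the 26 copies stood at 1% of their parent's mean level or less.

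**Figure D1:**
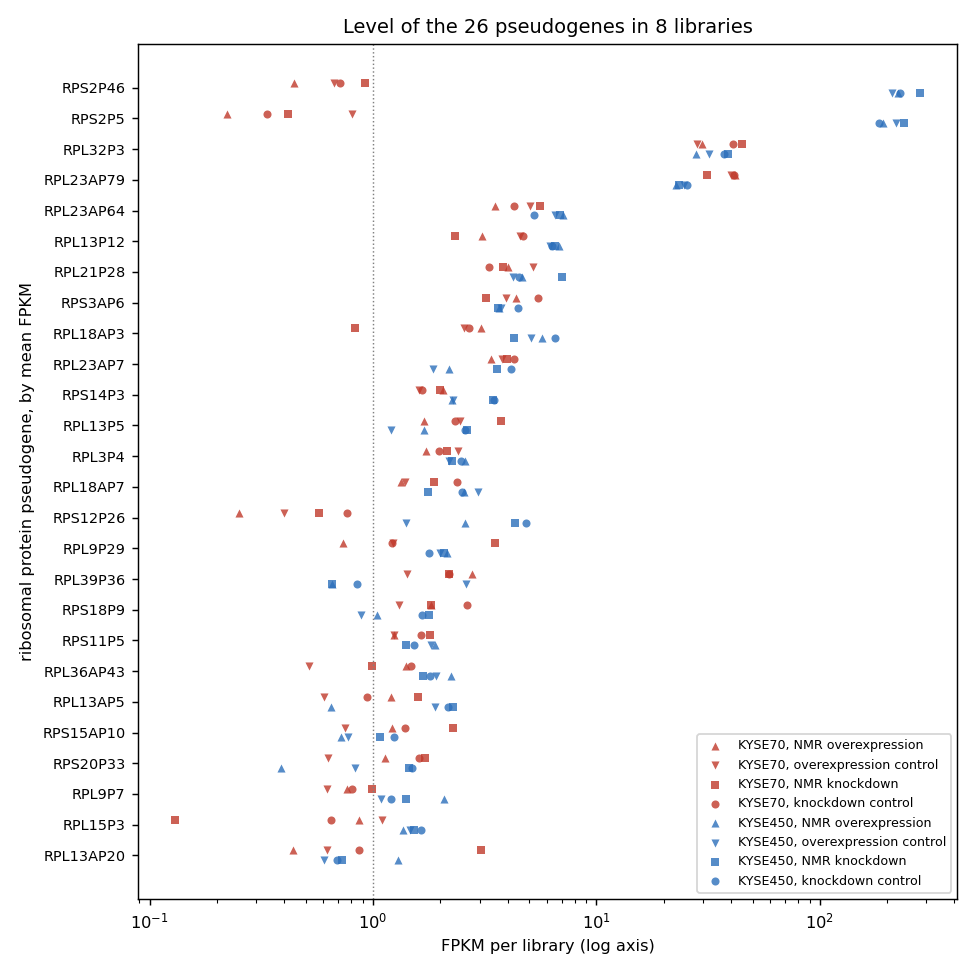
FPKM of the 26 pseudogenes (rows, by mean level) in each of the 8 libraries on a log axis, KYSE70 in red above KYSE450 in blue and the group by symbol; the dotted line marks 1 FPKM. RPS2P46 and RPS2P5 lie below 1 FPKM in all KYSE70 libraries and between 184 and 281 FPKM in all KYSE450 libraries.

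RPS2P46 and RPS2P5 were near 0 in KYSE70 and above 180 FPKM in every KYSE450 library. RPS2P46 had 0.443 FPKM under NMR overexpression, 0.668 FPKM in its control, 0.921 FPKM under NMR knockdown and 0.711 FPKM in its control in KYSE70, from 12 to 22 reads. In KYSE450 it had, in that order, 223, 211, 281 and 229 FPKM, from 5153 to 7843 reads. The lowest KYSE450 library thus lay far above the highest KYSE70 library. RPS2P46 averaged 0.686 ± 0.196 FPKM in KYSE70 and 236 ± 31.2 FPKM in KYSE450 (SD, n = 4 each). In RNA from whole cultures, fewer cells with a transcript and less of it per cell cannot be told apart.

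RPS2P5 had 0.221 FPKM under NMR overexpression, 0.807 FPKM in its control, 0.418 FPKM under NMR knockdown and 0.334 FPKM in its control in KYSE70, from 6 to 23 reads. The KYSE450 values in that order were 192, 219, 238 and 184 FPKM, from 5090 to 6312 reads. The groups did not overlap here either. The log2 difference in FPKM + 1, KYSE70 minus KYSE450, was -7.13 (SE 0.15) for RPS2P46 and -7.19 (SE 0.16) for RPS2P5. Both met the mean level that chose them only through KYSE450, so these differences are a description and carry no p-value.

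RPS2, the parent, encodes a protein near the mRNA entry channel of the small subunit. It had 2079 FPKM under NMR overexpression, 2275 FPKM in its control, 1255 FPKM under NMR knockdown and 2207 FPKM in its control in KYSE70. In KYSE450 it had, in that order, 4216, 4428, 4696 and 4550 FPKM. All KYSE70 libraries were below all KYSE450 libraries, but the log2 difference was only -1.23 (SE 0.21, limma adjusted p = 9.73e-04). RPS2P46 therefore stood at 0.0213% to 0.0734% of RPS2 in KYSE70 and at 4.76% to 5.99% in KYSE450. RPS2P5 stood at 0.0106% to 0.0355% of RPS2 in KYSE70 and at 4.03% to 5.07% in KYSE450. The log2 ratio to the parent differed by -7.03 for RPS2P46 and by -7.45 for RPS2P5 between the lines, again as a description.

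The other 15 RPS2 pseudogene rows, 79.6% to 97.9% identical to RPS2, averaged at most 0.472 FPKM, with no library above 0.743 FPKM. RPS2P46 shared 48.6% of its 50-base windows with RPS2 and RPS2P5 57.1%, against 36.3% for RPS2P55, a copy at 97.9% identity that averaged 0.089 FPKM and was picked after the values were seen. Counting windows found in any other gene, the shares were 59.5% for RPS2P46, 80.2% for RPS2P5 and 65.2% for RPS2P55. RPS2P46 lay inside a lincRNA gene on the same strand that averaged 0.207 ± 0.260 FPKM in KYSE70 and 0.209 ± 0.127 FPKM in KYSE450 (SD, n = 4 each). RPS2P5 lay in an intron of TAOK3, a protein kinase gene on the opposite strand, which averaged 9.08 ± 3.45 FPKM in KYSE70 and 14.01 ± 2.20 FPKM in KYSE450 (SD, n = 4 each). The part of the surrounding genes in the reads of these copies was not tested. Summed over all 607 pattern rows, FPKM ran from 139 to 183 in KYSE70 and from 567 to 690 in KYSE450, and without RPS2P46 and RPS2P5 from 138 to 182 in KYSE70 and from 150 to 171 in KYSE450.

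**Figure D2:**
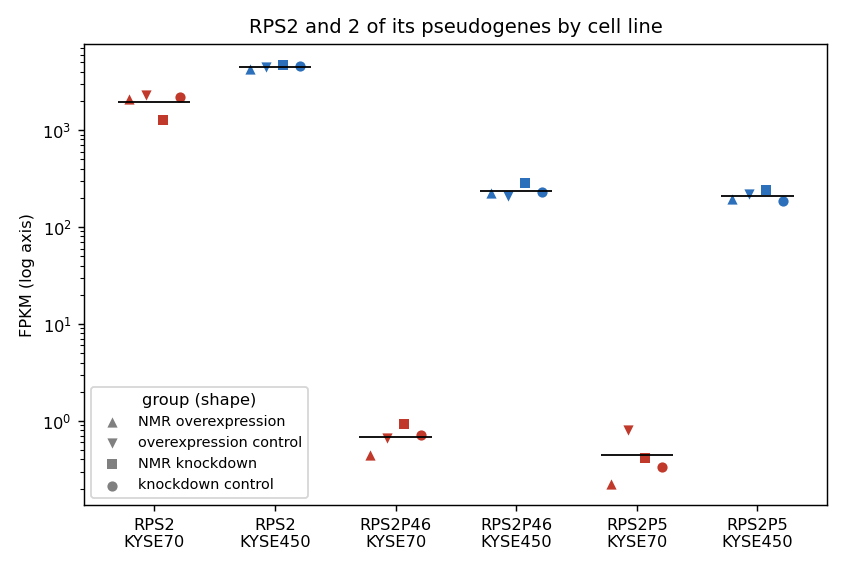
FPKM on a log axis of RPS2 and its pseudogenes RPS2P46 and RPS2P5 in each library, KYSE70 in red left of KYSE450 in blue; symbols are groups and bars are means of 4 libraries. Both copies lie below 1 FPKM in KYSE70, against 184 to 281 FPKM in KYSE450, while RPS2 itself reaches 1255 to 2275 FPKM in KYSE70 against 4216 to 4696 FPKM in KYSE450.

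Between the lines, limma called 9 of the 26 pseudogenes at adjusted p under 0.05, 1 higher and 8 lower in KYSE70, that is 34.6%. Over all 14311 rows tested the share called was 50.3%, with 24.7% higher and 25.6% lower in KYSE70. The pseudogenes' share is below that background, so the count is no result about them in particular. RPS2P46, RPS2P5, RPS12P26, RPL9P7 and RPL15P3 had KYSE70 means below 1 FPKM and met the level only through KYSE450, and these make up 5 of the 9 calls. RPS15AP10 and RPL13AP20 met it only through KYSE70. Copies that met the level through 1 line alone had to have unequal means, so their line differences are given without a p-value, and the remaining 19 averaged at least 1 FPKM in both. FPKM of the lines did not overlap for 10 of the 26, 1 higher and 9 lower in KYSE70, against 48.6% of all rows tested. The median log2 difference was -0.26 for the 26 pseudogenes, -0.77 for their 19 parents and -0.02 for all rows.

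RPL23AP79 was the only one of the 26 called higher in KYSE70. It had 41.6 FPKM under NMR overexpression, 39.9 FPKM in its control, 31.3 FPKM under NMR knockdown and 41.4 FPKM in its control in KYSE70. The KYSE450 values in that order were 22.8, 24.6, 23.4 and 25.4 FPKM. All KYSE70 libraries lay above all KYSE450 libraries, and the log2 difference was 0.65 (SE 0.13, limma adjusted p = 0.00241). Its parent RPL23A, a large-subunit protein at the exit of the peptide tunnel, differed the other way by -1.44 (SE 0.20, limma adjusted p = 2.86e-04). GENCODE release 29 names the RPL23AP79 locus CENPBD1P1, and 55.1% of its best-aligning transcript aligned to RPL23A. Of that transcript's 50-base windows, 0.3% were found in RPL23A and 79.7% in any gene other than its own. On the same strand the locus shares 487 exon bases with AC016629.3, 199 with AC016629.1 and 167 with MZF1-AS1. On the opposite strand it shares 256 with AC016629.2 and 73 with MZF1. MZF1, a zinc finger gene, averaged 11.3 ± 2.71 FPKM in KYSE70 and 18.6 ± 5.49 FPKM in KYSE450 (SD, n = 4 each). Whether the counting used strand was not given in the sources used here, so reads of the strands cannot be told apart.

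RPS12P26 had 0.252 FPKM under NMR overexpression, 0.401 FPKM in its control, 0.573 FPKM under NMR knockdown and 0.763 FPKM in its control in KYSE70, from 3 to 8 reads. In KYSE450 it had, in that order, 2.59, 1.398, 4.32 and 4.85 FPKM, from 15 to 73 reads. The lines did not overlap, and the copy met the level only through KYSE450. The log2 difference was -1.45 (SE 0.28) with the pseudocount of 1 FPKM, -2.44 with 0.1 FPKM and -2.61 by voom on recovered reads. Its parent RPS12, a small-subunit protein whose high level is little touched by the pseudocount, differed by -1.52 (SE 0.15). The log2 ratio to the parent, with 0.1 FPKM, differed by -0.91 and overlapped between the lines. SEMA4B, a semaphorin gene whose intron holds RPS12P26 on the same strand, averaged 33.9 ± 6.25 FPKM in KYSE70 and 235 ± 81.9 FPKM in KYSE450 (SD, n = 4 each), a log2 difference of -2.71 (SE 0.25, limma adjusted p = 1.6e-05). The part of parent and surrounding gene in the reads of RPS12P26 was not tested.

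RPL18AP3 had 3.05 FPKM under NMR overexpression, 2.56 FPKM in its control, 0.831 FPKM under NMR knockdown and 2.70 FPKM in its control in KYSE70. The KYSE450 values in that order were 5.70, 5.07, 4.26 and 6.55 FPKM. It was lower in every KYSE70 library, by -1.01 on the log2 scale (SE 0.26, limma adjusted p = 0.00895). TXNRD1, the thioredoxin reductase gene whose intron holds RPL18AP3 on the same strand, went the other way. It averaged 583 ± 137 FPKM in KYSE70 and 199 ± 57.4 FPKM in KYSE450 (SD, n = 4 each), a log2 difference of 1.56 (limma adjusted p = 6.23e-04). The part of TXNRD1 in the reads of RPL18AP3 was not tested.

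RPL13P12 had 3.06 FPKM under NMR overexpression, 4.55 FPKM in its control, 2.34 FPKM under NMR knockdown and 4.67 FPKM in its control in KYSE70. In KYSE450 it had, in that order, 6.82, 6.19, 6.52 and 6.32 FPKM. The lines did not overlap, with a log2 difference of -0.72 (SE 0.19, limma adjusted p = 0.012). Its parent RPL13, a large-subunit protein, differed by -1.55 (SE 0.18). RPL36AP43 averaged 1.10 ± 0.444 FPKM in KYSE70 and 1.90 ± 0.238 FPKM in KYSE450 (SD, n = 4 each), with limma adjusted p = 0.0472. This call was lost under 11 of 15 alternatives, among them the condition as block (adjusted p = 0.0507). RPL15P3 averaged 0.685 ± 0.412 FPKM in KYSE70 and 1.496 ± 0.117 FPKM in KYSE450, and RPL9P7 averaged 0.797 ± 0.151 FPKM in KYSE70 and 1.44 ± 0.440 FPKM in KYSE450 (SD, n = 4 each). Both met the level only through KYSE450, and their calls were lost under 7 of 15 and 10 of 15 alternatives.

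**Figure D3:**
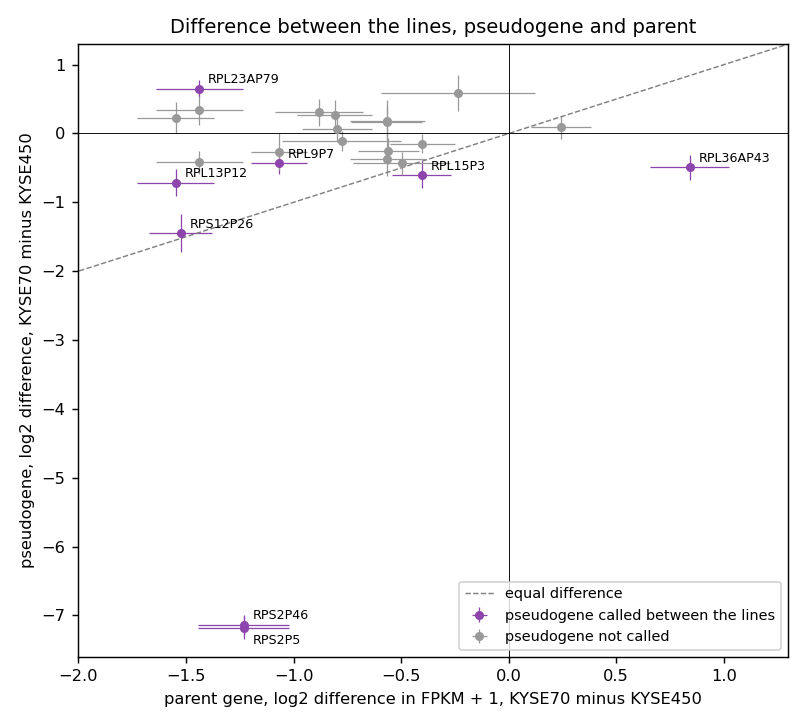
Log2 difference in FPKM + 1, KYSE70 minus KYSE450, of each pseudogene (vertical) against that of its parent gene (horizontal); bars are standard errors of the limma fit, purple marks called pseudogenes and the dashed line marks equal differences; RPL18AP3 and RPL18AP7 are not drawn. RPS2P46 and RPS2P5 lie at -7.13 and -7.19 where RPS2 lies at -1.23, RPL23AP79 lies above 0 where RPL23A lies at -1.44, and RPL36AP43 lies below 0 where RPL36A lies at 0.84.

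The parents as a group were lower in KYSE70. Of 19, 15 were called lower and 1, RPL36A, higher, and of 84 ribosomal protein genes 48 were called lower and 2 higher with a median log2 difference of -0.56. Of 18 processed pseudogenes of other housekeeping genes, 6 were called lower and 1 higher in KYSE70, that is 38.9% beside 50.3% of all rows, with a median of -0.20. Of 524 rows of pseudogene types other than the 26, 150 were called lower and 104 higher (48.5%), with a median of -0.09. No test compares these lists. For 15 of the 26 ribosomal protein pseudogenes, copy and parent were both below 0, and for 9 the copy was above 0 and the parent below. The log2 difference with a pseudocount of 1 FPKM understates changes of rows near 1 FPKM, so the ratio to the parent was also taken with a pseudocount of 0.1 FPKM.

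The log2 ratio to the parent did not overlap between the lines for 10 of the 26, 7 higher and 3 lower in KYSE70. Among 126 other pseudogenes with a row for their parent, 38.1% did not overlap, with 18.3% higher and 19.8% lower in KYSE70. The 10 of 26 are close to that share. Higher in KYSE70 by the largest differences were RPL23AP79, RPL23AP7, RPL13P5, RPS18P9 and RPL23AP64; lower were RPS2P5, RPS2P46 and RPL36AP43. They are named because their ratios do not overlap. That choice fixes the exact permutation p of 4 against 4 libraries, so none is given for them. Condition pairs the libraries across the lines, and 4 pairs allow no exact two-sided p below 0.125.

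RPL23AP79 stood at 75.3% of RPL23A under NMR overexpression, 56.9% in its control, 90.0% under NMR knockdown and 64.3% in its control in KYSE70. The KYSE450 shares in that order were 15.7%, 17.8%, 14.6% and 16.5%, a log2 ratio difference of 2.13. RPL23AP7 stood at 5.38% to 11.4% of RPL23A in KYSE70 and 1.34% to 2.71% in KYSE450, a difference of 1.90. RPL23AP64, in an intron of CCDC84 on the opposite strand, stood at 6.37% to 15.99% in KYSE70 and 3.43% to 4.89% in KYSE450, a difference of 0.97. All 3 share RPL23A, so their differences are not independent. RPL23A was itself low among the parents, at 56.1 ± 15.5 FPKM in KYSE70 and 149 ± 9.80 FPKM in KYSE450 (SD, n = 4 each). In levels, RPL23AP7 had 3.38 to 4.28 FPKM in KYSE70 and 1.85 to 4.16 FPKM in KYSE450, and RPL23AP64 had 3.52 to 5.56 FPKM in KYSE70 and 5.26 to 7.07 FPKM in KYSE450, so that the lines overlapped in both while RPL23A differed.

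RPL13P5 stood at 0.289% to 0.949% of RPL13 in KYSE70 and at 0.0730% to 0.167% in KYSE450, a difference of 1.88. Its level overlapped between the lines, at 1.69 to 3.75 FPKM in KYSE70 and 1.20 to 2.63 FPKM in KYSE450. RPL13P5 was only 80.6% identical to RPL13. It shares 561 exon bases with LRRC23 (mean 10.9 FPKM) and 60 with DSTNP2 (6.88 FPKM) on the same strand. On the opposite strand it shares 228 with SPSB2 (15.2 FPKM). RPS18P9 stood at 0.0949% to 0.212% of RPS18, a small-subunit protein of the head, in KYSE70 and at 0.0430% to 0.0742% in KYSE450, a difference of 1.36. RPS18P9 shares 206 exon bases with KATNA1 on the opposite strand.

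RPL36AP43 ran against its parent. It stood at 10.7%, 4.70%, 5.87% and 11.9% of RPL36A under NMR overexpression, its control, NMR knockdown and its control in KYSE70. Its KYSE450 shares in that order were 42.5%, 28.3%, 22.5% and 20.9%, a log2 ratio difference of -1.75. RPL36A itself was low among the parents and higher in KYSE70, by 0.84 (SE 0.18, limma adjusted p = 0.00401). PEX11A is a peroxisome gene whose intron holds RPL36AP43 on the same strand. It averaged 6.81 ± 1.83 FPKM in KYSE70 and 13.0 ± 0.846 FPKM in KYSE450 (SD, n = 4 each). The part of PEX11A in the reads of RPL36AP43 was not tested.

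At the other end of the scale, RPL13AP20 stood at 0.0559% of RPL13A over all libraries, RPL13AP5 at 0.0765%, RPS18P9 at 0.092% of RPS18 and RPS12P26 at 0.119% of RPS12. RPL13AP5 was 99.5% identical to RPL13A and RPL13AP20 96.7%. RPL32P3, with the third highest level, stood at 5.93% to 14.5% of RPL32 in KYSE70 and at 4.05% to 5.24% in KYSE450, and its ratio did not overlap either, with a difference of 0.86. Its level was 28.1 to 44.9 FPKM in KYSE70 and 28.0 to 39.0 FPKM in KYSE450, overlapping almost fully. RPL13P12 was the other copy with a non-overlapping higher ratio, with a difference of 0.69.

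A split at 98% identity to the parent, chosen after the values were seen and given as a description, put 10 pseudogenes at or above it and 16 below. Identity covers aligned bases only. These were 24.9% of the transcript for RPL23AP7, 29.1% for RPS18P9, 50.2% for RPL13P5, 55.1% for RPL23AP79 and 72.7% for RPL32P3, all below the split. The other copies aligned over 96.3% or more. The log2 ratio difference between the lines had a median of -0.08 among the 10 near-identical copies and of 0.88 among the 16 others. RPS2P46 and RPS2P5 apart, the near-identical copies lay between -0.85 (RPL15P3) and 0.69 (RPL13P12). Among the 16 others, 13 were above 0, with a range of -1.75 to 2.13.

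**Figure D4:**
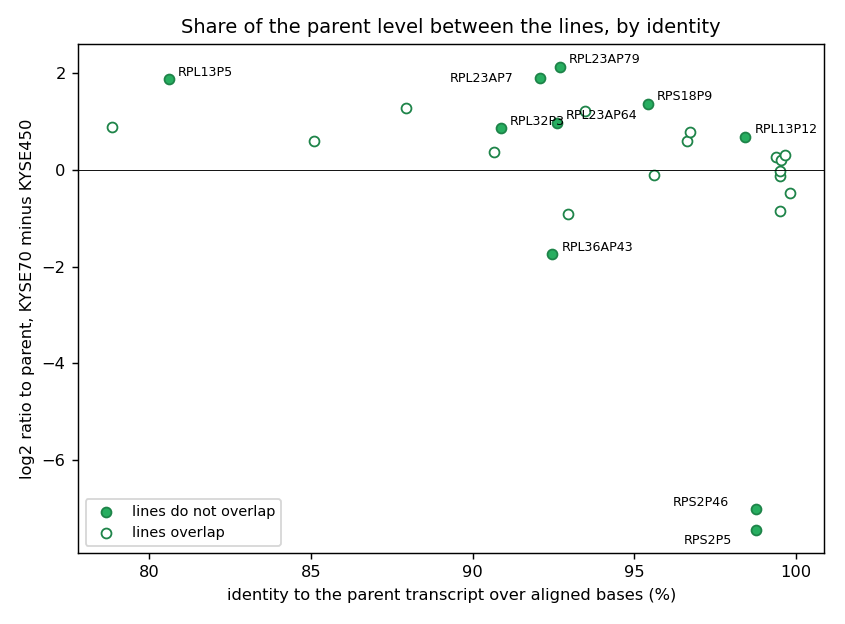
Difference of the mean log2 ratio to the parent, KYSE70 minus KYSE450, against identity of each pseudogene to its parent; filled points are pseudogenes whose 4 KYSE70 and 4 KYSE450 ratios do not overlap. RPS2P46 and RPS2P5 lie below -7 at 98.8% identity, and 13 of 16 points under 98% identity lie above 0.

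Position in the genome also differed among the 26. In the annotation, 16 overlapped a protein-coding gene, and 13 of these lay wholly inside such a gene, or inside several, without sharing an exon base with any overlapping gene; 9 of the 16 were on the same strand as a coding gene. Levels of these surrounding genes moved in either direction between the lines. GPBP1L1, around RPS15AP10, averaged 137 ± 12.6 FPKM in KYSE70 and 75.3 ± 6.41 FPKM in KYSE450, and APOO, around RPL9P7, averaged 46.4 ± 4.16 FPKM in KYSE70 and 22.2 ± 5.37 FPKM in KYSE450 (SD, n = 4 each). RPS15AP10 overlapped between the lines at 0.748 to 2.28 FPKM in KYSE70 and 0.716 to 1.24 FPKM in KYSE450. RPL9P7 averaged less in KYSE70, where APOO averaged more. The part of GPBP1L1 and APOO in the reads of these copies was not tested.

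NMR overexpression against its control called 0 of the 26 pseudogenes, and 0% of 14311 rows were called. At an unadjusted p under 0.05, limma gave 148 rows and 0 of the pseudogenes, and voom on recovered reads called 0 of the pseudogenes. The median log2 change of the 26 was -0.02 in the KYSE70 pair and 0.08 in the KYSE450 pair. With a single pair per line, 4 of the 26 were above 0 in both lines and 3 were below 0 in both. RPL36AP43 had 1.41 FPKM under overexpression and 0.517 FPKM in its control in KYSE70, and 2.23 FPKM under overexpression and 1.92 FPKM in its control in KYSE450. RPL9P7 and RPL18AP3 were the others with the largest shared increases in value, and RPS2P5, RPL15P3 and RPL18AP7 those with the largest shared decreases, none of which passed the test. RPS2P5 had 6 reads under overexpression and 23 reads in its control in KYSE70, and 5090 reads under overexpression and 5363 reads in its control in KYSE450.

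NMR knockdown against its control likewise called 0 of the 26, and 0% of 14311 rows. At an unadjusted p under 0.05, limma gave 1794 rows and 3 of the pseudogenes, and voom on recovered reads called 4 rows and 0 of the pseudogenes. Of the 26, 10 were above 0 and 8 below 0 in both lines. RPL18AP3 had 0.831 FPKM under knockdown and 2.70 FPKM in its control in KYSE70, and 4.26 FPKM under knockdown and 6.55 FPKM in its control in KYSE450. Its log2 change was -0.77 (SE 0.19, unadjusted p = 0.0045, limma adjusted p = 0.288). RPS3AP6, a copy of RPS3A, had 3.21 FPKM under knockdown and 5.48 FPKM in its control in KYSE70, and 3.63 FPKM under knockdown and 4.44 FPKM in its control in KYSE450. RPL18AP7 was the other copy named for a shared decrease in value, at 1.88 FPKM under knockdown and 2.38 FPKM in its control in KYSE70, and 1.76 FPKM under knockdown and 2.51 FPKM in its control in KYSE450.

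Shared increases in value were led by RPL23AP64, RPS2P46 and RPL21P28. RPS2P46 had 281 FPKM under knockdown and 229 FPKM in its control in KYSE450, where the reads gave a log2 ratio of 0.30 with a 95% interval of 0.25 to 0.35 that covers counting error only. In KYSE70 its 22 reads under knockdown against 17 reads in the control gave an interval of -0.61 to 1.38. RPL21P28 had 3.83 FPKM under knockdown and 3.315 FPKM in its control in KYSE70, and 6.998 FPKM under knockdown and 4.51 FPKM in its control in KYSE450.

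In the KYSE70 knockdown pair, most parents were below their control in value and the copies lay on both sides. The 19 parents had a median log2 change of -0.71 with 17 below 0, and all 84 ribosomal protein genes had a median of -0.68 with 76 below 0. The 26 pseudogenes had a median of 0.08 with 10 below 0, and 21 of them lay above their parent's change. In the KYSE450 pair the medians were 0.07 for the parents, 0.11 for the ribosomal protein genes and -0.01 for the pseudogenes, of which 6 lay above their parent's change. All rows tested had a median within 0.01 of 0 in both pairs. Changes of rows near 1 FPKM are understated on this scale, and for 4 of the 26 in KYSE70 even a loss of all reads would have been a smaller change than the parent's. As plain read ratios scaled to library totals, the 26 had a median log2 of 0.13 in KYSE70 with 10 below 0, and 20 lay above their parent's change. With 1 pair per line these are values of single libraries with no test, and copies of 1 parent share its value.

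RPL13AP20 had 3.03 FPKM (49 reads) under knockdown and 0.866 FPKM (14 reads) in its control in KYSE70, while RPL13A had 1138 FPKM under knockdown and 1858 FPKM in its control. RPL9P29, a copy of RPL9 at 85.1% identity, had 3.51 FPKM (55 reads) under knockdown and 1.21 FPKM (19 reads) in its control in KYSE70. Both values were the highest of the 4 KYSE70 libraries. RPL13AP20 was above 1 FPKM only there and, at 1.29 FPKM, in KYSE450 under NMR overexpression. Its high KYSE70 knockdown value thus helped it to meet the level, so its change is a description. Without the KYSE450 knockdown library, limma called 6 of the 26 in the KYSE70 pair beside 33.8% of all rows. RPL13AP20 at 1.11 and RPL9P29 at 1.03 were higher, and RPL18AP3, RPL13P12, RPS3AP6 and RPL23AP79 were lower. The count was also 6 of 26, with 33.8% of all rows, without the KYSE450 knockdown control. Only 1 knockdown pair informs these changes, so they are given without p-values. The spread in these fits comes from the overexpression pairs. RPL13P12, over 98% identical to its parent, lay with it, at -0.77 where RPL13 was at -0.76. It had 35 reads under knockdown and 70 reads in its control. Other copies at 98% identity or more lay further from their parent. RPL13AP5 was at 0.42 against -0.71 for RPL13A, and RPL21P28 at 0.16 against -0.31 for RPL21. RPL9P7 was at 0.14 against -0.2 for RPL9, and RPL3P4 at 0.08 against -0.14 for RPL3. RPL15P3 was at -0.55 against 0.096 for RPL15, and RPS3AP6 at -0.62 against -0.01 for RPS3A. RPL18AP3 was left out here. RPS2P46 and RPS2P5 cannot be set against RPS2 at -0.81 on this scale, since a loss of all their reads would give -0.78 and -0.42 in KYSE70. RPS2P5 had 10 reads under knockdown and 8 reads in its control there, with an interval of the log2 read ratio from -1.17 to 1.87. Over the 10 copies at 98% identity or more the median was 0.09 with 4 below 0, and over the 16 others 0.07 with 6 below 0.

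**Figure D5:**
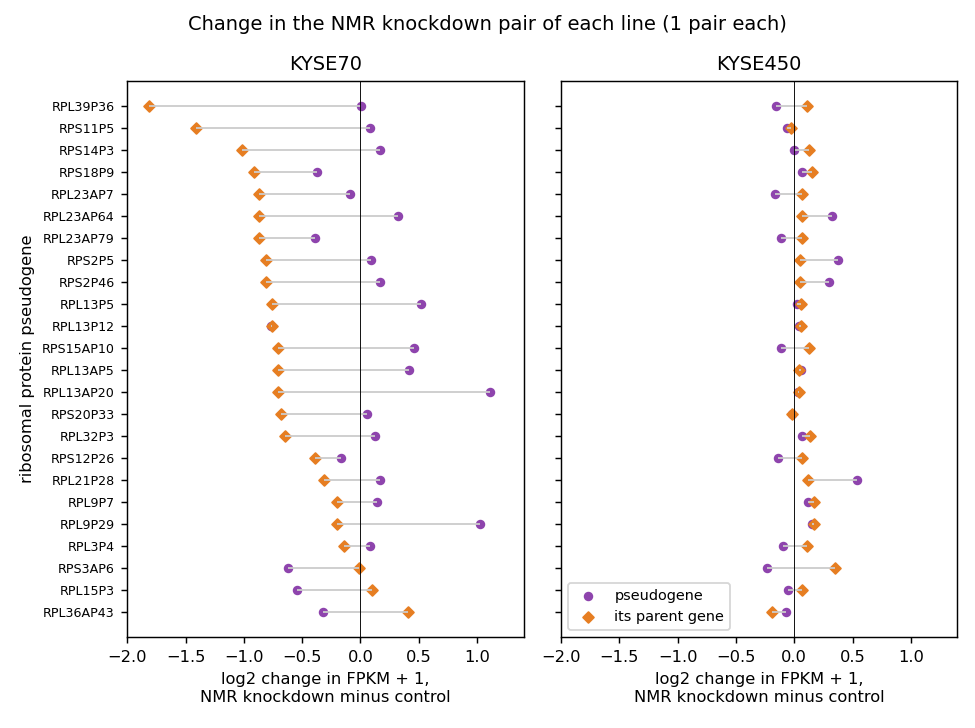
Log2 change in FPKM + 1, NMR knockdown minus its control, of each pseudogene (circle) and its parent gene (diamond) in the single pair of KYSE70 (left) and of KYSE450 (right); RPL18AP3 and RPL18AP7 are not drawn. In KYSE70 most parents lie near -0.7 and most pseudogenes to the right of their parent; in KYSE450 both lie near 0.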

How the data were processed

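RNA from 8 libraries (4 groups, 2 cell lines) was used. Per the submitters' processing notes, TopHat2 2.0.9, HTSeq 0.6.1 and hg19 were used, without their roles; for annotation, filters, strand and read length: not given in the sources used here. The deposited values behave as FPKM, a unit taken from the values: whole reads were recovered for 30869 of 30872 rows above 0 in at least 2 libraries, within 0.02 of a whole number. Groups came from the titles. Rows with a mean of at least 1 FPKM (14311) were fitted as log2(FPKM + 1) with limma 3.58.1 (trend) in R 4.3.3, Benjamini-Hochberg adjustment and a threshold of 0.05, after tests on simulated data. The line model had no block; overexpression and knockdown were fitted with 1 term per pair of treated library and control. Libraries of the same condition deviated together across the lines (correlations 0.334, 0.158, 0.279 and 0.203), so condition pairs them. Ratios to the parent used a pseudocount of 0.1 FPKM and exact permutation tests in scipy 1.17.1. Copies were aligned to parent transcripts of GENCODE 29 with Biopython 1.88 (match 2, mismatch -3, gap opening -5, extension -2). Members and lists were chosen with earlier results of these data known. Named pseudogenes were the 10 highest, those called between the lines, the 4 highest and 4 lowest ratios to the parent, up to 5 per direction with non-overlapping ratios, up to 3 per direction and treatment with the same sign in both lines, and 3 on each side of the level; others were picked after their values were seen. Without molecular identifiers reads may repeat a molecule, so intervals cover counting error only. The values of 1 parent gene are not reported here.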

Additional observations from a re-analysis of the deposited data

Results flagged for a closer look

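In 52 sets of 4 libraries (26 pseudogenes in each line), 4 had 1 library far from the other 3 by Dixon's test on log2(FPKM + 1), where chance gives about 1 in 20. RPL23AP79 in KYSE70 was lowest under NMR knockdown, at 31.3 FPKM. RPL18AP3 in KYSE70 was lowest under NMR knockdown, at 0.831 FPKM from 12 reads. RPS3AP6 in KYSE450 was highest in the knockdown control, at 4.44 FPKM. RPL39P36 in KYSE450 was highest in the overexpression control, at 2.60 FPKM from 11 reads.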

How the results depend on the processing

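Called between the lines were 9 of the 26 pseudogenes. With a mean of at least 5 FPKM, where fewer rows are tested, 4 of 6 were called. The control libraries alone, where fewer samples enter, gave 2. Voom on recovered reads gave 6, the fit with no filter on the mean also gave 6, and leaving out each library in turn gave 6 to 10. The replicate block (condition) gave 7 and changed no other call than RPL36AP43 and RPL9P7. RPL18AP3, RPL13P12 and RPL23AP79 missed the threshold under 1 alternative, the control libraries alone. Under overexpression every alternative gave 0. Under knockdown every alternative gave 0, no replicate block included, apart from 2 fits in which the count moved. Those left out NMR_knockdown replicate 2 or knockdown_control replicate 2. Only the KYSE70 pair then informs the change, with a spread taken from the overexpression pairs, so their calls are not counted here. Ratios to the parent did not overlap for 10, for 15 with a pseudocount of 1 FPKM, and for 10 to 13 when each library was left out. A level of 0.5 FPKM would give 49 pseudogenes and a level of 2 FPKM 14. Copies near 1 FPKM rest on 2 to 49 reads per library.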
